A study of Homo sapiens with 4 samples.

Results

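The genes described are 10 that carry signals of energy stress: STK11, the AMPK subunit genes PRKAA1, PRKAA2, PRKAB1, PRKAB2, PRKAG1 and PRKAG2, the salt-inducible kinase genes SIK1 and SIK2, and TXNIP. They were picked by gene symbol from the 38137 genes listed for each library, and all 10 are among the 19393 genes with a mean of at least 20 reads that were compared between libraries. RNA came from A549 xenografts, tumors grown in the flank of male BALB/c athymic nude mice from a human lung adenocarcinoma cell line that is known to lack functional STK11. Mice were 6 weeks old and fell into 4 groups of 5: a control group, a group with aerobic exercise alone, a group with radiation alone, and a group with the combination. Mice of the exercise groups ran on a treadmill for 30 min at 8.0 m/min, radiation was 2 Gy to the tumor per session, both were given in 3 sessions per week for 2 weeks, and in the combination the run came before the irradiation on the same day. All 4 groups carried the same cells in the same T cell deficient host.

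Each group is 1 library, and it is not stated whether that library is 1 tumor or a pool. No difference below has a replicate check, so none has a p-value. Ratios are of TMM-scaled CPM, the reads of a gene set to a common library size, a 2-fold ratio is the threshold for a call, and intervals are 95% intervals of counting error only. Reads assigned to genes numbered 33432637 to 35408705 per library. The only genome named for alignment is the human one, while the host was a mouse. Reads at markers of muscle, fibroblasts, endothelium and macrophages can thus come from mouse or tumor cells, which were not told apart. Of 10 markers of A549 and epithelium, led by ALDH1A1, the summed level was 12846, 13265, 12434 and 13623 CPM in the control, exercise, radiation and combination libraries, with SFTPC, a surfactant gene of mature alveolar cells, at 3 reads or fewer in each library. The 11 skeletal muscle markers, led by TTN, summed to 26.0, 27.1, 64.5 and 68.3 CPM in the same order, with 4, 2, 0 and 0 of them at 0 reads. TTN gave most of that sum in control and stayed at 20.7 to 26.1 CPM, while the other 10 summed to 5.26, 6.28, 38.3 and 47.6 CPM. MYH4, a fast muscle myosin gene, had 1, 25, 485 and 417 reads, and MYH1 had 0, 11, 278 and 258 reads. CKM, ACTA1, MYH2 and MYH7 were also past 2-fold above control in both irradiated libraries. MB went the other way, with 70, 58, 37 and 52 reads. TNNC2 had 18, 11, 27 and 27 reads, and MYLPF and TNNT3 had 5 or fewer in each library. The 7 fibroblast markers, led by COL1A1, summed to 328, 335, 215 and 186 CPM. The 5 endothelial markers summed to 19.8, 15.9, 10.9 and 6.9 CPM. PECAM1 alone gave 18.3, 14, 9.6 and 5.53 CPM of that and was the only endothelial marker with enough reads to be compared. The 7 macrophage and neutrophil markers, led by CSF1R, summed to 376, 366, 432 and 497 CPM. CSF1R itself stood at 278, 267, 239 and 251 CPM. CD68 (44.3, 44.6, 101 and 110 CPM) and LYZ (41.8, 40.9, 81.8 and 124 CPM) were higher in both irradiated libraries. CD14 was too, with 37, 50, 62 and 79 reads. ITGAM was lower in both, with 253, 295, 192 and 202 reads. ADGRE1 had 106, 119, 82 and 113 reads, and PTPRC, with 7, 14, 8 and 15, was not compared.

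STK11, also called LKB1, is a kinase that switches on AMPK and its relatives, SIK1 and SIK2 among them, by phosphorylating their activation loop. AMPK is a trimer of a catalytic α subunit, a scaffolding β subunit and a γ subunit that senses AMP and ADP, and it slows biosynthesis and favours fuel use when ATP runs low, in working muscle as in tumor cells. TXNIP binds thioredoxin and limits glucose uptake, its transcription follows glucose supply through the factors MondoA and ChREBP, and AMPK is known to mark its protein for degradation. Only RNA was measured here, so the values say nothing of phosphorylation or of protein.

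TXNIP was the one member past 2-fold, and it was low in the library of exercise alone. It had 4061 reads in the control library, 1847 after exercise, 4704 after radiation and 4602 after both. On the CPM scale the levels were 114, 53.5, 135 and 141. The exercise library stood below the other 3, which lay close together. Against control, TXNIP was 2.13-fold lower with exercise (interval 2.01 to 2.25), and 1.53% of all genes compared were past 2-fold in that comparison. Against exercise alone, it was 2.63-fold higher in the combination (2.49 to 2.78), where 5.98% of all genes were past 2-fold. The exercise library enters both ratios, so they are not separate evidence of a low level. The repeat of the exercise contrast that shares no library with the first, the combination against radiation, gave a ratio of 1.04 (0.997 to 1.08). In bulk tumor RNA, less TXNIP RNA per cell and fewer cells that express it cannot be told apart. Markers of muscle and endothelium differed in both directions between the control and exercise libraries. MYH4 had 1 and 25 reads, MYH2 0 and 14 and CKM 2 and 11, while ACTA1 had 95 and 85, MB 70 and 58 and TNNC2 18 and 11. The 10 muscle markers other than TTN summed to 5.26 and 6.28 CPM. PECAM1, an endothelial gene, had 655 and 484 reads, while KDR had 9 and 19 and TEK 13 and 27. The fibroblast markers summed to 328 and 335 CPM. The part of these markers in the TXNIP ratio was not tested.

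The departure of the combination from the sum of the single log2 ratios for exercise and radiation was 1.14 for TXNIP (1.05 to 1.24). No other member departed by 1 or more, and 3.96% of all genes did. For the other 9 members the departure ran from -0.16 for PRKAA2 to 0.17 for PRKAG2. TXNIP was the 94th lowest of 19393 genes by its ratio of exercise to control. Among the 7773 genes with a mean of at least 1000 reads, 8 were at or below its ratio, TXNIP included, and the others were IFI6, RPS29, LINC00486, the signal recognition particle RNAs RN7SL1 and RN7SL2, and the uncharacterised LOC107987206 and LOC105378179.

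**Figure D1:**
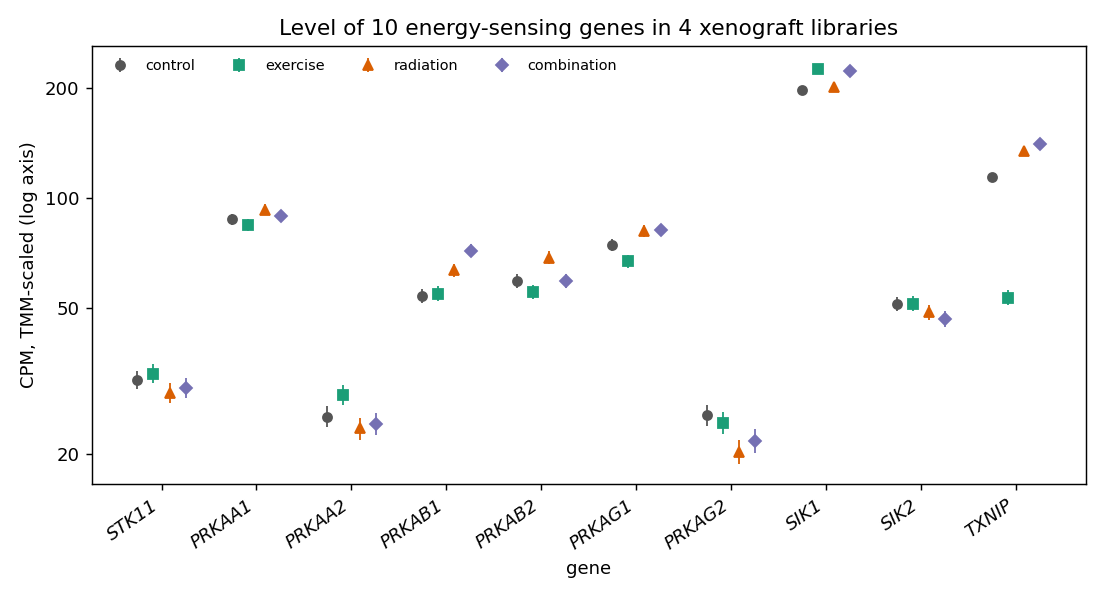
Level of each of the 10 genes in CPM (log axis) in the control, exercise, radiation and combination libraries, 1 symbol per library, with bars for the 95% interval of counting error. TXNIP with exercise alone, at 53.5 CPM, lies apart from its levels of 114 to 141 CPM in the other libraries, while each of the other 9 genes keeps within a narrow band.

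ARRDC4, which encodes another α-arrestin under the control of MondoA, had a pattern close to that of TXNIP. Its reads numbered 590 in the control library, 298 after exercise, 830 after radiation and 752 after both. Its level was 16.5, 8.62, 23.9 and 23.0 CPM in that order. Again the exercise library was lowest. ARRDC4 was 1.91-fold lower with exercise than in control (1.66 to 2.21), just short of the threshold, and 2.66-fold higher in the combination than with exercise alone (2.33 to 3.06). It was 1.44-fold higher with radiation than in control (1.3 to 1.61), and its departure was 0.88 (0.63 to 1.13). TXNIP held 87.3%, 86.1%, 85.0% and 86.0% of the reads of the pair in the control, exercise, radiation and combination libraries. The largest of these shares, in control, has an exact interval of 86.3% to 88.3%, which lies above the radiation share with its interval of 84.0% to 85.9%.

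The promoters of TXNIP and ARRDC4 are shown because both genes stood out in the same library. The stretches come from RefSeq on GRCh38.p14, are read 5′ to 3′ on the strand of the gene, and lie upstream of the start of transcription. For TXNIP, on the reverse strand, the window is chr1:145996600-145996719, and for ARRDC4, on the forward strand, it is chr15:97960473-97960592. Capitals mark 2 copies of CACGAG in TXNIP, which start 88 and 77 bases upstream, and 1 copy of CACGTG in ARRDC4, which starts 210 bases upstream.
TXNIP: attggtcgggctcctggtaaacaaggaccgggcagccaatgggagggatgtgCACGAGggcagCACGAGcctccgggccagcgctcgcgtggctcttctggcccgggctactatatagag
ARRDC4: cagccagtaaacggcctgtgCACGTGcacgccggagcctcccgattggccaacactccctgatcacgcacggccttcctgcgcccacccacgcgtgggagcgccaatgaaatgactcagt
Of 35116 RefSeq promoters of 300 bases, 7.26% hold CACGTG, the E-box, on either strand, and no promoter listed for the members does, although all 10 have one listed. CACGAG, a letter away from the E-box, occurs in 6.78% of promoters and was searched after the TXNIP sequence had been seen. The arrangement of TXNIP, with 2 copies on the same strand and 5 bases between them, was found in 2 promoters (0.0057%), those of TXNIP and KCTD5. Motif, strand and spacing were all copied from the TXNIP promoter, so its own match was fixed in advance. A match of letters is a description of the sequence, not a binding site and not a cause of the values.

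TXNIP lies at chr1:145992435-145996579 (GRCh38.p14) and overlaps no other RefSeq gene. The genes closest to it in pattern, by Euclidean distance of centred log2 CPM over the 4 libraries, were HS3ST3B1, MGAT4C, LOC105377352, RDH12 and ADCY6-DT, at distances of 0.11 to 0.16. All of these had few reads, with 149 at most in a library. HS3ST3B1, a heparan sulfate sulfotransferase gene, had 128 reads in the control library, 55 after exercise, 139 after radiation and 149 after both. With radiation, TXNIP itself was 1.19-fold higher than in control (1.14 to 1.24), and in the combination 1.24-fold higher (1.18 to 1.29).

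The RNA of MLXIP, MLX and MLXIPL, genes for factors known to act on TXNIP, did not show the TXNIP pattern. The activity of these factors was not measured, and their part in the TXNIP values was not tested. MLXIP, which encodes MondoA, had log2 ratios to control of 0.01, 0.16 and -0.07 with exercise, radiation and the combination. For MLX, the partner of MondoA and ChREBP, they were 0.12, 0.01 and 0.18. MLXIPL, which encodes ChREBP, had 952 reads in the control library, 1262 after exercise, 702 after radiation and 827 after both. It was thus highest in the exercise library, by 0.45 on the log2 scale over control. Of the 6 genes listed as MondoA and ChREBP with their targets, none was past 2-fold against control, and ARRDC4 was past it in the combination against exercise. The median log2 ratio of the list against control was 0.12, 0.19 and 0.27 for exercise, radiation and the combination, where the medians over all genes were 0.00, 0.00 and -0.01.

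Of the arrestin-fold genes, ARRDC1, ARRDC2, ARRDC3 and ARRDC5 gave no 2-fold ratio in any of the 5 comparisons. ARRDC5 had only 20 to 40 reads per library, and its ratio of the combination to exercise was -0.91 on the log2 scale. Of 8 thioredoxin genes and partners of TXNIP, 7 had enough reads, and the median log2 ratios to control were 0.01, -0.14 and -0.07. TXN, the redox protein that TXNIP binds, had 2611, 2550, 2313 and 2194 reads in the control, exercise, radiation and combination libraries. SLC2A3, a glucose transporter gene, had 3880, 5778, 5527 and 7108 reads, so that both treatments and the combination stood above control. In the combination it lay just short of 2-fold over control. TXNRD2, the mitochondrial thioredoxin reductase gene, was lowest of the list against control, at -0.15, -0.32 and -0.30. NLRP3, an inflammasome gene whose protein TXNIP can bind, had 14, 6, 6 and 7 reads and was not compared.

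**Figure D2:**
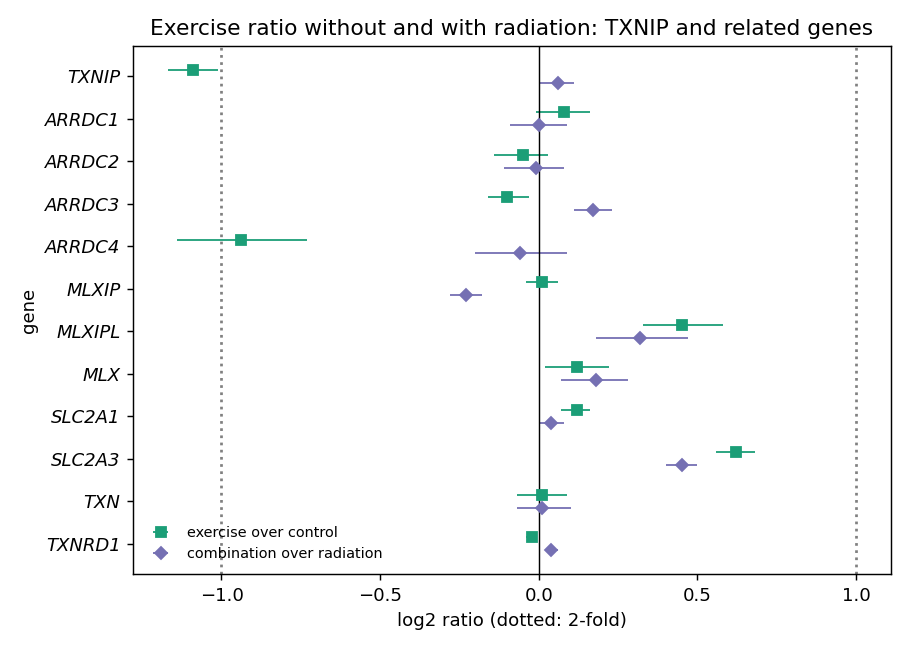
Log2 ratio of exercise over control (squares) and of the combination over radiation (diamonds), pairs that share no library, for TXNIP, 4 arrestin-fold relatives and 7 regulators or partners, with bars for 95% counting intervals and dotted lines at 2-fold. TXNIP (-1.09 and 0.06) and ARRDC4 (-0.94 and -0.06) are low in the first ratio and near 0 in the second, while SLC2A3 (0.62 and 0.45) is above 0 in both.

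STK11, at chr19:1205778-1228431, gave nearly the same number of reads in every library. It had 1139 reads in the control library, 1146 after exercise, 1021 after radiation and 994 after both. That is 31.9, 33.2, 29.4 and 30.4 CPM. The largest difference against control was that with radiation, a ratio of 0.92 (0.845 to 1). The reads come from whole tumors of a line known to lack the functional protein, and counts per gene show neither which cells they came from nor which sequence they carried. STK11 also overlaps CBARP. Both irradiated libraries were below both unirradiated ones. The partners that hold STK11 in its active complex, the pseudokinase genes STRADA and STRADB and the scaffold genes CAB39 and CAB39L, gave no 2-fold ratio in any comparison, with medians of -0.10, -0.08 and 0.03 against control. STRADB varied most, with 676, 553, 616 and 706 reads in the control, exercise, radiation and combination libraries.

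Of the catalytic subunits, PRKAA1 (α1) gave 3124 reads in the control library, 2922 after exercise, 3235 after radiation and 2932 after both, or 87.5, 84.6, 93.0 and 89.5 CPM. All of its log2 ratios lay between -0.06 and 0.09. PRKAA2 (α2), the form known for its abundance in muscle, gave 904, 1003, 817 and 791 reads, or 25.3, 29.0, 23.5 and 24.2 CPM. It was highest with exercise, 1.15-fold over control (1.05 to 1.26). PRKAA1 had 77.6% of the α reads in the control library (exact interval 76.2% to 78.8%), 74.4% after exercise (73.1% to 75.8%), 79.8% after radiation (78.6% to 81.1%) and 78.8% after both (77.4% to 80.1%). The α1 share in the exercise library was below the shares in the other 3, and its interval overlaps none of theirs. Here and for the pairs below, intervals hold counting error only, and other gene pairs were not examined for such splits. Per kilobase of exon, a scale chosen after the values were seen, PRKAA1 stood at a mean of 13.5 CPM and PRKAA2 at 2.73 CPM over all GENCODE transcripts. PRKAA1 is at chr5:40759389-40798374 and PRKAA2 at chr1:56645314-56715335.

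Of the β subunits, which carry the glycogen-binding module, PRKAB1 (β1) showed the widest spread of any subunit. It gave 1934 reads in the control library, 1898 after exercise, 2208 after radiation and 2356 after both. The levels were 54.2, 54.9, 63.5 and 71.9 CPM, with both irradiated libraries above both others and the combination highest. Against control, PRKAB1 was 1.33-fold higher in the combination (1.25 to 1.41) and 1.17-fold higher with radiation (1.1 to 1.25). The combination was also 1.13-fold above radiation alone (1.07 to 1.2). PRKAB2 (β2) gave 2124, 1919, 2392 and 1947 reads, or 59.5, 55.5, 68.8 and 59.5 CPM, and was highest with radiation alone. PRKAB1 took 47.7% of the β reads in the control library (46.1% to 49.2%), 49.7% after exercise (48.1% to 51.3%), 48.0% after radiation (46.5% to 49.5%) and 54.8% after both (53.3% to 56.2%). The 2 forms thus took near-equal shares of reads except in the combination, where the share of β1 was above the intervals of the other libraries. These are raw reads, not set to gene length. Per kilobase of exon, PRKAB1 and PRKAB2 stood at means of 9.79 and 11.1 CPM over all GENCODE transcripts. With the basic set of transcripts they stood at 19.5 and 11.2 CPM.

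PRKAB1 is at chr12:119667952-119681619, where the antisense gene PRKAB1-AS1 overlaps it, and reads of both cannot be told apart where the counting did not use strand. PRKAB2 is at chr1:147155106-147172470. The genes nearest to PRKAB1 in pattern were CNTD1, GCC2-AS1, RPS19, PROS1 and SORD, at distances of 0.01 to 0.02. RPS19, a ribosomal protein gene, had 5545, 5457, 6323 and 6688 reads in the control, exercise, radiation and combination libraries. Its ratios of 0.02, 0.23 and 0.40 to control on the log2 scale sat beside 0.02, 0.23 and 0.41 for PRKAB1.

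Of the γ subunits, PRKAG1 (γ1) gave 2668 reads in the control library, 2327 after exercise, 2830 after radiation and 2678 after both, or 74.7, 67.3, 81.4 and 81.8 CPM. It was lowest with exercise, and the combination was 1.21-fold above exercise alone (1.15 to 1.28). PRKAG2 (γ2), variants of which are known for glycogen storage in the heart, gave 912, 839, 705 and 710 reads, or 25.5, 24.3, 20.3 and 21.7 CPM. It was 1.26-fold lower with radiation than in control (1.14 to 1.39) and 1.18-fold lower in the combination (1.07 to 1.3). PRKAG1 took 74.5% of the reads of the pair in the control library (73.1% to 75.9%), 73.5% after exercise (71.9% to 75.0%), 80.1% after radiation (78.7% to 81.4%) and 79.0% after both (77.6% to 80.4%). The shares of γ1 in both irradiated libraries were above those in both unirradiated ones, with no overlap of these counting intervals. By CPM, PRKAG1 was above and PRKAG2 below in both irradiated libraries, orders that 26.2% and 27.6% of all genes showed.

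PRKAG3 (γ3), the form of glycolytic muscle, gave 2, 1, 0 and 2 reads in the control, exercise, radiation and combination libraries and was not compared. Those 0 reads allow up to 0.0863 CPM. PRKAG1 lies at chr12:49002274-49018776 and PRKAG2 at chr7:151556127-151877115, a span of 320989 bases with 2 antisense genes inside it. The genes nearest to PRKAG2 in pattern were WDR53, PCDHB6, FLJ12825, LRCH3 and SNRPF, at distances of 0.02 to 0.03. Among the 3295 genes that span 100000 bases or more, the median log2 ratio to control was 0.02 with radiation and -0.05 in the combination, beside -0.33 and -0.24 for PRKAG2.

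**Figure D3:**
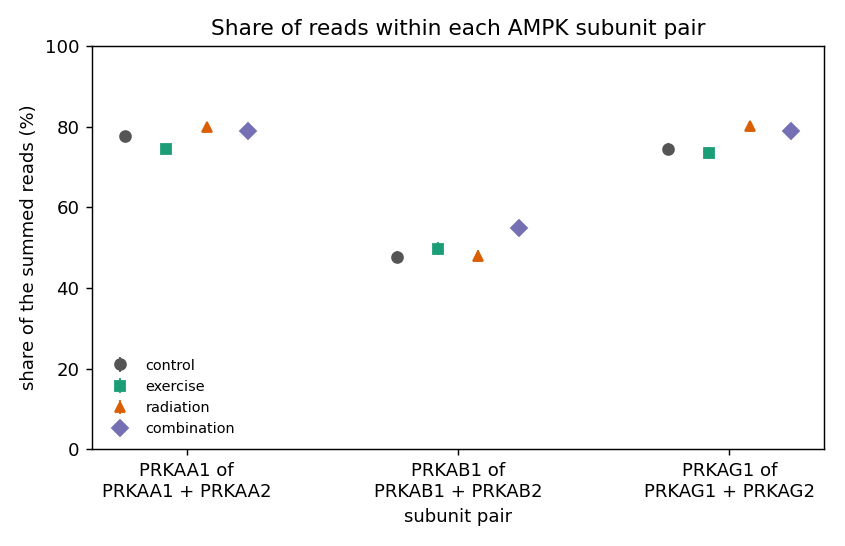
Share (%) of the summed reads of each AMPK subunit pair taken by PRKAA1, PRKAB1 and PRKAG1 in each of the 4 libraries, with bars for exact 95% intervals. The share of PRKAG1 is 80.1% and 79.0% in the irradiated libraries against 74.5% and 73.5% in the others, and the share of PRKAB1 is highest in the combination, at 54.8%.

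SIK1 gave 7068 reads in the control library, 7772 after exercise, 6980 after radiation and 7283 after both, or 198, 225, 201 and 222 CPM. Both exercised libraries were above both sedentary ones. SIK1 was 1.14-fold higher with exercise than in control (1.1 to 1.17) and 1.11-fold above radiation alone in the combination (1.07 to 1.15). SIK1, at chr21:43414483-43427131, has a near-identical copy, SIK1B, at chr21:6111134-6123739. Of all 100-base windows of the SIK1 transcript, 86.8% occur in that of SIK1B, so how reads were split between the copies is uncertain. SIK1B had 10901, 11670, 10475 and 11407 reads in the control, exercise, radiation and combination libraries. Summed, the copies stood at 503, 563, 502 and 571 CPM, and SIK1 took about the same share of the sum in each library, 39.3% in control. In the sum, as for SIK1, both exercised libraries were above both sedentary ones, with log2 ratios of 0.16 for exercise over control and 0.19 for the combination over radiation.

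The promoter of SIK1 is shown because SIK1 is a known target of CREB, whose core element is TGACG. The window is chr21:43427242-43427361 on the reverse strand (RefSeq, GRCh38.p14), and capitals mark 3 copies of the core, here as CGTCA on the opposite strand, that start 217, 137 and 126 bases upstream.
SIK1: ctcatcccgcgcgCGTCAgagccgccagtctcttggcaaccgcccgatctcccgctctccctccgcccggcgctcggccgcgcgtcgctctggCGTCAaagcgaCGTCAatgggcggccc
TGACG on either strand occurs in 24.6% of all promoters and, among the members, in those of STK11, PRKAG1, PRKAG2, SIK1 and SIK2. The full palindrome TGACGTCA, which contains the core, occurs in 1.85% of promoters and in none of the members.

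SIK2 gave 1834 reads in the control library, 1778 after exercise, 1697 after radiation and 1529 after both, or 51.4, 51.5, 48.8 and 46.7 CPM. It was 1.1-fold lower in the combination than in control (1.03 to 1.18), its largest difference against control. SIK2 is at chr11:111602449-111730855 and overlaps PPP2R1B. Levels between genes depended on the length used. Per kilobase of exon over all GENCODE transcripts, SIK1 stood highest of the 10 genes, at a mean of 40.1 CPM, and PRKAA2 lowest, at 2.73 CPM. They kept those places with the basic set of transcripts, at 44 and 2.73 CPM per kilobase, but PRKAG1 moved from 18.2 to 39.4, PRKAB1 from 9.79 to 19.5 and STK11 from 3.61 to 9.99 CPM per kilobase. TXNIP stood at 30.5 and 34.5 CPM per kilobase, above PRKAG1 on the first scale and below it on the other. In the deposited FPKM, whose length includes introns, TXNIP was highest, at a mean of 26.6, SIK1 followed at 16.7, and PRKAG2 was lowest at 0.0715.

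Taking the 10 members together, the ratios to control stayed small apart from that of TXNIP. None was past 2-fold with radiation against control, where 2.78% of all genes were, in the combination against control (4.04%), or in the combination against radiation (1.30%). No member differed by 1.5-fold or more in the same direction in both radiation pairs that share no library, which 5.48% of all genes did. None did so in both exercise pairs either, which 0.902% of all genes did. Both irradiated libraries were above both unirradiated ones for PRKAA1, PRKAB1, PRKAG1 and TXNIP, 4 of 10, where 26.2% of all genes were. They were below for STK11, PRKAA2, PRKAG2 and SIK2, 4 of 10, where 27.6% of all genes were. With total counts in place of TMM, PRKAA1 left the first set, and with median-of-ratios scaling PRKAB2 joined it. Both exercised libraries were above both sedentary ones for SIK1 (11.6% of all genes) and below for PRKAB2 (13.2% of all genes). The order of PRKAB2 is slight, since control and the combination both stood at 59.5 CPM, and it turned with median-of-ratios scaling. The summed muscle markers were higher and the summed fibroblast markers lower in both irradiated libraries, as given above, and their part in these orders was not tested.

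**Figure D4:**
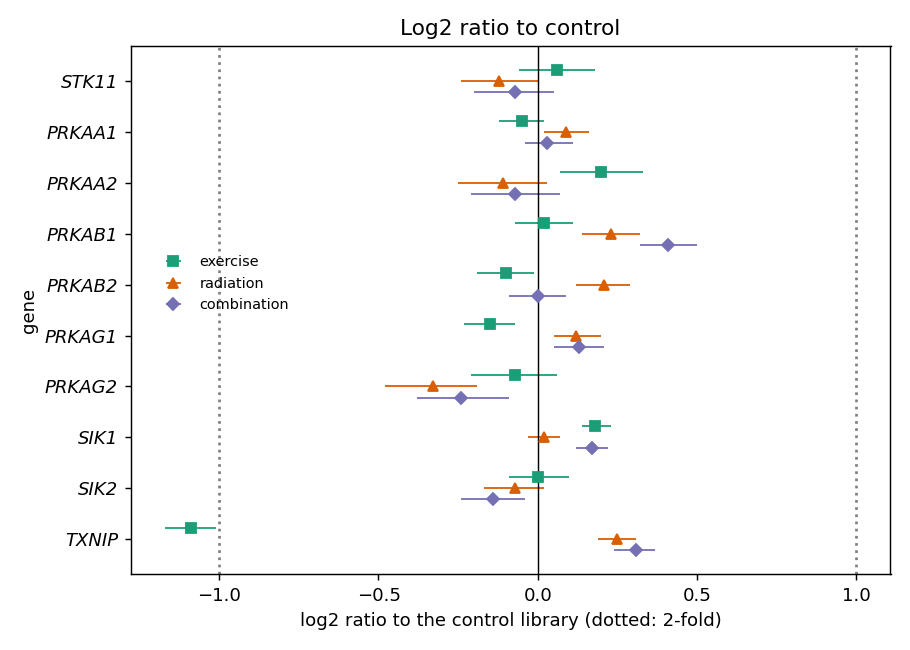
Log2 ratio to the control library for the 10 genes with exercise, radiation and the combination, with bars for 95% counting intervals and dotted lines at 2-fold. TXNIP with exercise, at -1.09, is the one point beyond a dotted line, and the other ratios lie between -0.33 for PRKAG2 with radiation and 0.41 for PRKAB1 in the combination.

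Of the other kinases that phosphorylate AMPK, CAMKK1 and CAMKK2 were lower in the irradiated libraries without a 2-fold ratio. CAMKK1, a kinase switched on by calcium, gave 377 reads in the control library, 404 after exercise, 274 after radiation and 200 after both. Its log2 ratio was -0.79 for the combination over control and -0.94 for the combination over exercise. CAMKK2 gave 2873, 2516, 2207 and 2050 reads, with log2 ratios to control of -0.14, -0.34 and -0.36. MAP3K7, which encodes TAK1, lay between -0.13 and 0.03 in all 5 comparisons. The median log2 ratio of the 3 genes to control was -0.05, -0.34 and -0.36 with exercise, radiation and the combination.

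The 10 other AMPK-related kinases gave no 2-fold ratio in any comparison, and their medians against control were 0.02, -0.02 and 0.00. NUAK1 and NUAK2, a pair of close relatives, lay at opposite ends in the combination. NUAK1 had 1643, 2057, 1327 and 1082 reads in the control, exercise, radiation and combination libraries and was lowest in the combination. NUAK2 had 1554, 1795, 1630 and 2190 reads and was highest there. Their log2 ratios of the combination to control were -0.48 and 0.62. The folliculin genes FLCN, FNIP1 and FNIP2, whose proteins bind AMPK, also gave no 2-fold ratio, with medians of -0.07, 0.03 and 0.01.

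Genes for substrates of AMPK likewise stayed within 2-fold, all 14 in all 5 comparisons, with medians against control of 0.06, -0.02 and -0.05. PFKFB3, a glycolytic enzyme gene, was the highest in the combination against control, at 0.47, with 6063, 6985, 6833 and 7692 reads in the control, exercise, radiation and combination libraries. PFKFB2, its relative in heart and kidney, was the lowest there, at -0.41. TBC1D1, which links AMPK to glucose transporter traffic, was the highest with exercise, at 0.34. TSC2, a brake on mTORC1, was the lowest with radiation, at -0.25, and in the combination against exercise, at -0.36.

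Among the pathway lists, the sestrins and other energy stress genes grouped under p53 had the highest median in the irradiated libraries. Against control, 3 of the 5 genes reported were past 2-fold with radiation and in the combination. Of all genes compared, 2.78% and 4.04% were past 2-fold in these comparisons. The activity of p53 was not measured. Sestrins are known to activate AMPK and restrain mTORC1. SESN1 had 375 reads in the control library, 319 after exercise, 902 after radiation and 956 after both. It was 2.47-fold higher with radiation than in control (2.19 to 2.79) and 2.78-fold higher in the combination (2.46 to 3.14). SESN2 had 428, 417, 944 and 1064 reads, 2.26-fold higher with radiation (2.02 to 2.54) and 2.71-fold higher in the combination (2.42 to 3.04). TIGAR, which encodes a phosphatase that diverts sugar from glycolysis, had 976, 952, 1963 and 2183 reads, 2.06-fold (1.91 to 2.23) and 2.44-fold (2.26 to 2.63) higher. For each of these 3 genes the control and exercise libraries lay within 0.19 of each other on the log2 scale, below both irradiated ones. SESN3 had log2 ratios to control of -0.11, 0.66 and 0.77 with exercise, radiation and the combination. DDIT4, an mTORC1 inhibitor gene, had 0.46, 0.38 and 0.67, and so was above control with exercise alone too. Against control, the median log2 ratio of the 5 genes was 0.01, 1.05 and 1.29 for exercise, radiation and the combination.

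Among the 7 genes for SIK substrates, none was past 2-fold in any comparison, with medians against control of 0.00, -0.16 and -0.23. HDAC4, a class IIa histone deacetylase gene, lay furthest below control in the combination, with 1203, 1152, 884 and 627 reads in the control, exercise, radiation and combination libraries. Its log2 ratio of the combination to control was -0.81. CRTC2, a coactivator of CREB, was the highest of the list with exercise, at 0.28, and in the combination against control, at 0.21. CRTC1 was -0.42 in the combination against control.

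Of 11 target genes of CREB and CRTC, 10 were above control with exercise, where 50.4% of all genes were, with a median of 0.24. In that comparison NR4A1 and FOS were past 2-fold, where 1.53% of all genes were. The combination over radiation is the exercise pair that shares no library with exercise over control. There 6 of 11 were above 0, where 50.2% of all genes were, with a median of 0.13. NR4A1 and FOS are also immediate early genes that answer many stimuli. NR4A1, a nuclear receptor gene, had 1913 reads in the control library, 3833 after exercise, 1810 after radiation and 2953 after both. It was 2.07-fold higher with exercise than in control (1.96 to 2.19), and both exercised libraries were above both sedentary ones. FOS had 2137, 4975, 5017 and 7555 reads, with each treatment 2.41-fold above control and the combination 3.85-fold above it (3.67 to 4.05). PPARGC1A, a coactivator gene of mitochondrial biogenesis, had 72, 65, 25 and 50 reads. It was 2.77-fold lower with radiation than in control (1.76 to 4.62) and 2.1-fold above radiation alone in the combination (1.29 to 3.58). INHBA, an activin subunit gene, was 2.53-fold lower in the combination than with exercise alone (2.12 to 3.03). The medians of the 11 genes were -0.04 with radiation and -0.11 in the combination against control.

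**Figure D5:**
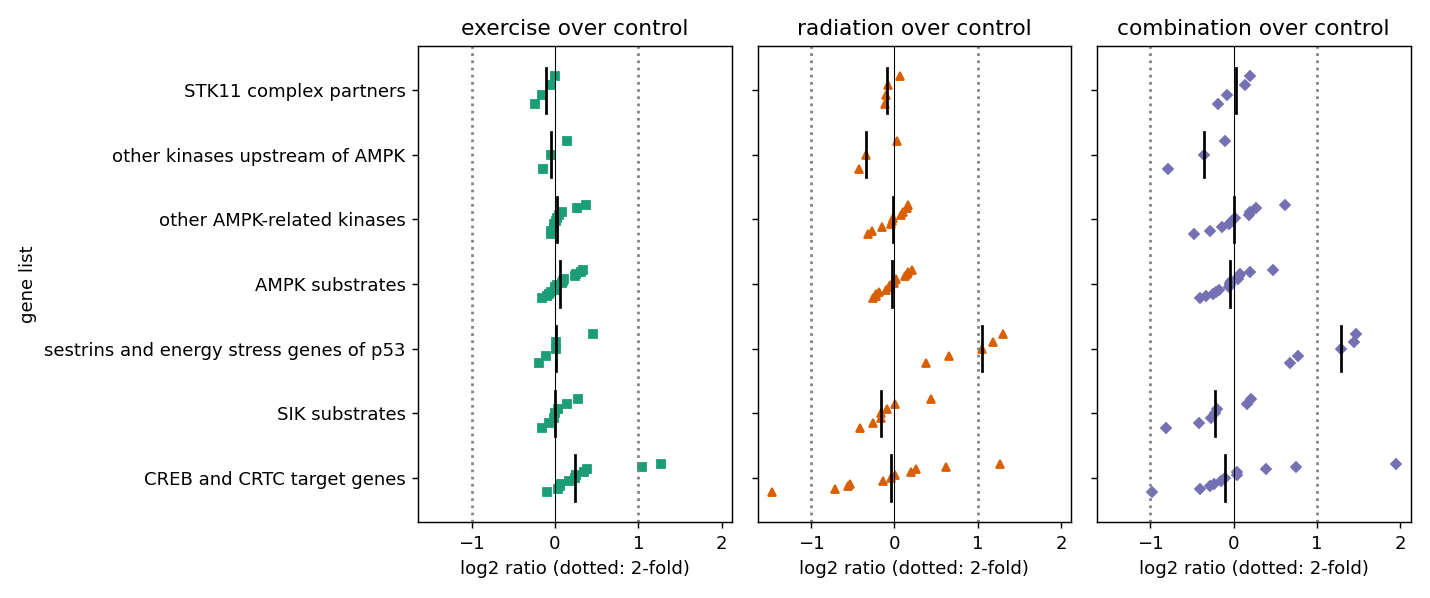
Log2 ratio of each gene (symbols) of 7 lists around STK11, AMPK and the SIK kinases in the exercise, radiation and combination libraries over control, with a vertical bar at the median of each list and dotted lines at 2-fold. The energy stress genes of p53 lie to the right with radiation (median 1.05) and the combination (median 1.29), and the other medians lie between -0.36 and 0.24.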

How the data were processed

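The authors made polyA-selected stranded libraries, read as pairs of 100 nt. The submitters' processing notes name cutadapt, Bowtie2 2.3.4.1, featureCounts 1.6.0 and GRCh38. Bowtie2 places no read across an intron. The strand setting is not given in the sources used here, nor is the handling of mouse reads. The values deposited are raw read counts of each gene and FPKM. The length implied by the deposited FPKM was within 2% of the whole gene span for 9 of the 10 members, so intronic reads may be counted, and 7 members overlap another RefSeq gene.

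Counts were scaled by TMM (edgeR 4.0.16, R 4.3.3) on genes averaging 20 counts or more, with factors of 0.979 to 1.03, and log2 ratios used a prior of 0.5 counts. Gene names and positions are from RefSeq, and the spans of SIK1B, exon lengths and transcripts from GENCODE. Fold intervals are exact (Clopper-Pearson), and the interval of a departure uses Poisson variances. A count of 0 was taken to allow 3 counts. Scripts ran in python 3.11.15, with scipy 1.17.1 and pandas 2.3.3, and plots were drawn with matplotlib 3.10.9. The calculation of ratios was tested on simulated data.

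The members and lists were chosen with earlier results of these data known. One gene of the list of energy stress genes is not reported here and was left out of its counts and medians, whatever its values. Genes named are the 10 members, SIK1B, list genes at 2-fold, the highest and lowest genes of each list, of which a part is given, and the 5 genes nearest in pattern to the 3 members of widest range. KCTD5, the genes with many reads and low ratios beside TXNIP, and some other list genes were named after their values were seen, and the subunit shares, the CACGAG search, the per-exon scale and the grouping by gene span were added then. Alternatives were other scalings, priors of 2 and 0.1 counts, other minimum counts, FPKM with 0.1 added and a threshold of 1.5-fold.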

Additional observations from a re-analysis of the deposited data

How the results depend on the processing

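Each group is 1 library, so spread between tumors is unknown, and no replicate could be left out. No paired analysis was possible because each group holds 1 sample and no test was made. TXNIP stayed the one member past 2-fold, in exercise over control and in the combination over exercise, under every scaling, prior, minimum count and threshold tried and with FPKM. Its log2 ratio of exercise over control ran from -1.12 to -1.09, that of the combination over exercise from 1.35 to 1.41, and its departure from 1.14 to 1.18. Member values moved beyond their counting interval in 6 of 60 cases with total-count scaling and in 7 of 60 with FPKM. TXNIP was among those moved with total counts. Its log2 ratio went from 0.25 to 0.18 for radiation over control and from 0.31 to 0.23 for the combination over control. The side of 0 turned for PRKAB1 and SIK2 (exercise over control), SIK1 (radiation over control) and PRKAA1 (combination over control) with total counts, and for PRKAB2 (combination over control) with median-of-ratios factors, all with ratios near 0.

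The number of all genes past the threshold moved most. It was 297, 540, 784, 253 and 1159 for exercise, radiation and the combination over control, the combination over radiation and the combination over exercise. With no minimum count it was 5632, 6055, 6475, 5584 and 6686, and with a minimum mean of 100 it was 71, 221, 325, 23 and 597. With FPKM plus 0.1 it was 74, 159, 241, 36 and 422, and at 1.5-fold it was 1367, 1966, 2457, 1274 and 3102. More or fewer genes enter at another minimum, and the threshold itself differs in the last. For FPKM the cause was not tested.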
